A study of Drosophila melanogaster with 6 samples.

Results

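Transcripts of 10 genes of hemocytes, the blood cells of the fly, were followed in stage 11 embryos that lacked a normal fork head (fkh) gene. The genes were Hml, crq, Pxn, Sr-CI, ush, NimC1, eater, lz, PPO1 and Pvr. Every probe set whose current gene symbol was one of these names was taken, which gave 11 of the 18769 probe sets on the array and 10 of 11982 genes. Of the 10 genes, 9 had 1 probe set, and Pxn had a bright and a dim one.

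Embryonic hemocytes arise in the head mesoderm under the GATA factor Serpent (srp), and most become plasmatocytes, which spread through the embryo, engulf dying cells and deposit basement membrane. A smaller group near the foregut becomes crystal cells, which store the enzymes of melanin formation. Transcription factors set these fates, the receptor tyrosine kinase Pvr guides migration and keeps the cells alive, and a range of scavenger and Nimrod receptors takes up corpses and bacteria.

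The mutants carried the fkh6 allele and the controls were wild type (WT) embryos of the Oregon R strain, a name that the strain label also gives for the mutants. Each group had 3 independent collections of whole embryos, kept at 25 C and passed through an embryo sorter, and each collection was hybridized to 1 array (Affymetrix Drosophila Genome 2.0). Embryos of a collection were pooled. Age is given as stage 11, with the groups described as matched in age. Values are log2 signals that the authors normalized with RMA, a method that subtracts background, gives all arrays one distribution and combines the probes of a probe set.

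The fkh transcript itself was at 10.83, 10.62 and 10.64 in fkh mutants and at 10.23, 10.11 and 10.28 in WT (log2 signal, log2 difference 0.49, adjusted p = 0.012 from limma), so no loss of this transcript checks the labels, and the kind of lesion in this allele is not given in the sources used here. The salivary gland gene PH4alphaSG2, a known direct target of Fkh, was lower in fkh mutants (4.83, 4.91 and 5.02 against 5.86, 5.81 and 5.63 in WT, adjusted p = 0.0018). Over all probe sets the median SD of replicates was 0.146 in fkh mutants and 0.0751 in WT (log2 units). Calls needed a fold over 1.4 and a limma p that stayed under 0.05 after adjustment across the whole array (Benjamini-Hochberg). Where a gene had several probe sets, the brightest stood for it. Over all genes the median log2 difference was -0.07. All 7 measured muscle markers were called higher, by a median of 4.54 in log2 units, and their mean log2 signal was 9.57, 10.19 and 8.49 in the 3 fkh arrays against 4.87, 5.21 and 4.93 in WT. Their part in the values of blood genes was not tested.

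Of the 10 hemocyte genes, 3 were higher in fkh mutants and none was lower. They were PPO1, a prophenoloxidase of crystal cells (3.92-fold), Pxn, the matrix enzyme peroxidasin (2.34-fold), and Sr-CI, a class C scavenger receptor (1.83-fold). Among all genes 7.80% were called higher and 7.89% lower. The median log2 difference of the 10 genes was 0.20. All 3 fkh arrays lay above all 3 WT arrays in 4 of the genes, against 16.6% of all genes, and below them in 1, against 27.5%.

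Of the 10 genes, 6 (ush, Pvr, crq, Sr-CI, Pxn and PPO1) were above the array median on every array, and all 6 had a higher mean in fkh mutants. The other 4 (lz, NimC1, eater and Hml), among them 3 markers that are widely used for larval plasmatocytes, were below the array median on every array (medians of 5.36 to 5.45, log2). Whether these 4 were above background was not tested. In bulk RNA of whole embryos, fewer or more blood cells and less or more RNA per cell cannot be told apart.

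**Figure D1:**
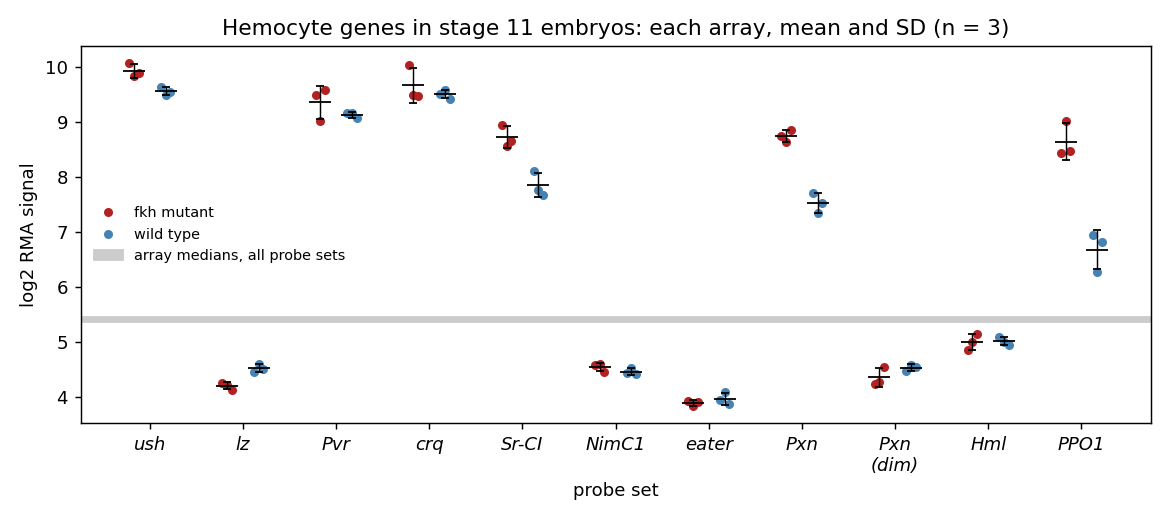
Log2 RMA signal of the 11 probe sets of hemocyte genes, with a point for each array (fkh mutants left, WT right), a bar for the mean and whiskers for the SD (n = 3 arrays each). The grey band spans the medians of the 6 arrays. PPO1, Pxn, Sr-CI and ush show no overlap between groups with fkh mutants above, and the dim genes sit below the band in both groups.

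Among regulators of blood cell fate, ush encodes a Friend of GATA cofactor that binds Serpent and restrains crystal cell formation. Its signal was 10.08, 9.84 and 9.90 in fkh mutants and 9.64, 9.50 and 9.55 in WT. The lowest fkh array was above the highest WT array, and the difference was small (log2 difference 0.38, standard error 0.09, adjusted p = 0.032 from limma). At 1.30-fold it stayed under the fold minimum and was not called. It was called with no fold minimum and after cyclic loess, where the log2 difference was 0.50. Its adjusted p was 0.064 without fkh replicate 1, and 0.078, 0.123 and 0.121 without WT replicate 1, 2 and 3. ush is also transcribed in the amnioserosa, the extraembryonic tissue on the dorsal side. Of 8 measured amnioserosa markers, ush included, none was called higher and 1, Ance, was called lower. Every marker but ush had a lower mean in fkh mutants, with log2 differences of -0.22 to -0.49. In 6 of the 8 all fkh arrays lay below all WT arrays, against 27.5% of all genes. The mean log2 signal of the list was 9.54, 9.27 and 9.46 in fkh mutants and 9.70, 9.69 and 9.65 in WT. No marker was below the array median on every array. Their part in the value of ush was not tested.

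The Runx factor gene lz, which directs the crystal cell fate, had signals of 4.25, 4.22 and 4.13 in fkh mutants and 4.45, 4.59 and 4.52 in WT. Every fkh array was below every WT array, at a level where the array gives little signal. The log2 difference was -0.32 (standard error 0.08, adjusted p = 0.033 from limma), and its fold of 1.25 was under the minimum, so it was not called. The adjusted p of lz was above 0.05 under most alternatives: it was 0.122 after cyclic loess, 0.097 with ribosomal protein scaling and 0.059 without pooling of the spread. It was 0.052 without fkh replicate 1, 0.056 without fkh replicate 2, and 0.081, 0.134 and 0.125 without WT replicate 1, 2 and 3. On the adjusted p alone, with no fold minimum, 4 of the 10 genes were higher (PPO1, Pxn, Sr-CI and ush), against 9.31% of all genes, and 1 was lower (lz), against 12.1%.

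Other regulators of the blood lineage showed 1 fall and no rise among 8 measured genes, with a median log2 difference of -0.20. The fall was in srp itself, the GATA factor at the top of the lineage, which also specifies fat body and endoderm. Its signal was 10.75, 10.45 and 10.31 in fkh mutants and 11.11, 11.23 and 11.13 in WT (log2 difference -0.65, standard error 0.12, adjusted p = 0.012 from limma), and no fkh array reached the WT values. The call was lost without WT replicate 2 (adjusted p = 0.056) and without WT replicate 3 (adjusted p = 0.055). It was also lost without limma's pooling of the spread (adjusted p = 0.073). Of the other regulators, Mlf, a partner of Lozenge, had a log2 difference of -0.33 and kn, a factor of the EBF family, one of 0.37, and both passed on p without reaching 1.4-fold. A dimmer probe set of kn did not show this rise (log2 difference -0.07, adjusted p = 0.591 from limma). The plasmatocyte and glial fate gene gcm had a log2 difference of -0.10 and its paralog gcm2 one of 0.09 (adjusted p = 0.740 and 0.655). Of the fat body, which also needs srp, 3 markers were measured (Fbp1, Fbp2 and Lsp2), and none was called in either direction (log2 differences of -0.05, -0.05 and -0.19). Fbp2 was below the array median on every array, and the values of Fbp1 and Lsp2 (4.97 to 5.68) were near the array medians. Whether these 3 were above background was not tested.

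Pvr, the receptor of the PDGF- and VEGF-related factors, did not pass the test. It was at 9.50, 9.02 and 9.59 in fkh mutants and at 9.17, 9.16 and 9.07 in WT. The value of fkh replicate 2 lay below all WT arrays and the other 2 lay above, so the groups overlapped. The log2 difference was 0.23 (standard error 0.15, adjusted p = 0.339 from limma), and the 95% interval of the ratio of fkh mutants to WT ran from 0.92 to 1.50. Without fkh replicate 2 the log2 difference was 0.41 (adjusted p = 0.022), still under the fold minimum. It was 0.13 without fkh replicate 3 and 0.37 after cyclic loess, and passed on p in neither. Pvr is transcribed in epidermis and glia as well as in hemocytes. Of the 7 measured glial markers, Pvr included, none was called in either direction, and their mean log2 signal was 9.72, 9.48 and 9.80 in fkh mutants and 9.81, 9.78 and 9.69 in WT, with no marker below the array median on every array. Of the 7 measured tracheal and epidermal markers, Pvr included, Osi6 and Osi15 were called higher, with log2 differences of 8.03 and 6.74. The other 5 (btl, grh, e, ple and Pvr) differed by 0.07 to 0.30 and were not called, and the median over the list was 0.23. Of these, e and ple were below the array median on every array. A dimmer probe set of grh had a log2 difference of -0.23 and was not called either. The mean log2 signal of the list, which Osi6 and Osi15 carry, was 9.17, 9.13 and 8.36 in fkh mutants and 6.70, 6.69 and 6.60 in WT. The part of these tissues in the value of Pvr was not tested.

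Of the 3 ligand genes of Pvr, 2 were called higher. Pvf1 was higher in fkh mutants by 3.62-fold, with signals of 7.63, 8.28 and 8.04, against 6.10, 6.18 and 6.10 in WT (adjusted p = 6.8e-04 from limma). The gap between the groups was larger than the spread within either. Pvf2, which attracts embryonic hemocytes along their routes, was higher by 1.48-fold at a signal below the array median on every array (3.97, 4.44 and 3.98 in fkh mutants and 3.45, 3.62 and 3.64 in WT, adjusted p = 0.038), and this call was lost without any 1 of the WT arrays, without fkh replicate 2 and under 3 further settings. The brightest of 4 probe sets of Pvf3 had a log2 difference of 0.13 (adjusted p = 0.551), and none of the other 3 was called.

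Of the 4 receptors for uptake of particles among the 10 genes, 1 was higher. Sr-CI, a scavenger receptor that binds bacteria, was at 8.96, 8.56 and 8.67 in fkh mutants and at 8.11, 7.78 and 7.69 in WT. Groups did not overlap, with 0.46 log2 units between the lowest fkh and the highest WT array. The log2 difference was 0.87 (standard error 0.15, adjusted p = 0.0088 from limma). Without limma's pooling of variances the adjusted p was 0.070, so this call rests on the pooled spread.

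The corpse receptor gene crq, of the CD36 family, did not pass the test. Its values were 10.05, 9.50 and 9.48 in fkh mutants and 9.52, 9.60 and 9.43 in WT. Only fkh replicate 1 stood above WT, and without it the log2 difference was -0.03 in place of 0.16. Over all alternatives it ran from -0.03 to 0.39. The 95% interval of the ratio of fkh mutants to WT was 0.86 to 1.45. The probe set of crq belongs to a class whose probes can match transcripts of more than 1 gene, which limits this value. The probe sets of Col4a1, Glt, emp and dia, called genes given below, and of Ance, given above, are of the same class and share this limit. The called probe set of mys, also given below, is of another class that shares it. Signals of NimC1, a phagocytic receptor with EGF-like repeats, were 4.58, 4.60 and 4.46 in fkh mutants and 4.43, 4.53 and 4.41 in WT. Signals of eater, a receptor of the same kind, were 3.93, 3.83 and 3.91 in fkh mutants and 3.94, 4.08 and 3.86 in WT. Groups overlapped in both genes (log2 differences 0.09 and -0.07, adjusted p = 0.480 and 0.618 from limma).

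A list of 11 other measured genes held Nimrod and EGF-repeat genes and the engulfment adaptor gene ced-6, which is not of that family. Of these, 5 were higher and none lower. The median log2 difference was 0.16, which is the value of ced-6 itself. NimB3 was 8.44-fold, NimB4 3.72-fold and NimB2 2.85-fold higher. NimB3 had signals of 8.37, 8.95 and 7.40 in fkh mutants and 5.07, 5.33 and 5.08 in WT (adjusted p = 0.0021 from limma). WT values of NimB3, NimB4 and NimB2 were below the array median, so these folds depend on the background of the array. NimC4, a receptor for apoptotic cells, was 1.61-fold higher at a bright signal (12.22, 11.88 and 12.52 in fkh mutants and 11.70, 11.52 and 11.34 in WT, adjusted p = 0.037), a call lost without any 1 of the WT arrays and without fkh replicate 1. The count of 5 dropped to 3 without any 1 of the WT arrays, and to 2 without limma's pooling of the spread. NimB2 (adjusted p = 0.061) and NimC4 (adjusted p = 0.14) were among the calls lost without pooling. The engulfment receptor gene drpr had a log2 difference of -0.22 (adjusted p = 0.126).

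The Nimrod genes lie side by side on arm 2L. In the RefSeq gene order NimA, NimB1, NimB2, NimB3, NimB4, NimB5, He and NimC1 follow each other with 0 other protein-coding genes between neighbours. The calls covered NimB1 to NimB4 in the middle of this row, while NimA, NimB5, He and NimC1 at its ends were not called (log2 differences -0.09, 0.12, 0.18 and 0.09). Sr-CI and Sr-CIII are direct neighbours on the same arm, and Sr-CIII had a log2 difference of -0.21 (adjusted p = 0.248) where Sr-CI was higher.

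Among 7 other scavenger receptor genes, 1 was higher and 3 were lower, with a median log2 difference of -0.28. Sr-CII, of the same class as Sr-CI, was 1.74-fold lower (11.01, 10.89 and 10.23 in fkh mutants and 11.55, 11.36 and 11.62 in WT, adjusted p = 0.039 from limma), opposite to Sr-CI. Its call was lost without any 1 of the WT arrays and after cyclic loess. The CD36-family genes emp (3.36-fold higher), ninaD (1.57-fold lower) and santa-maria (1.51-fold lower) were called as well. Calls of ninaD and santa-maria, genes known for carotenoid uptake, were lost without WT replicate 1. Without limma's pooling of the spread no call in this list was kept. The adjusted p was then 0.149 for Sr-CII, 0.062 for emp, 0.078 for ninaD and 0.069 for santa-maria.

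Pxn encodes peroxidasin, a matrix peroxidase of hemocytes that cross-links collagen IV. Its bright probe set was at 8.75, 8.64 and 8.87 in fkh mutants and at 7.71, 7.34 and 7.54 in WT. All fkh arrays were above all WT arrays by at least 0.94 log2 units. The SD was 0.11 in fkh mutants and 0.18 in WT. The log2 difference was 1.23 (standard error 0.11, adjusted p = 9.1e-04 from limma), and the 95% interval of the ratio was 1.94 to 2.82. The dim probe set of Pxn did not show it: it was at 4.24, 4.27 and 4.55 in fkh mutants and at 4.46, 4.58 and 4.55 in WT, below the array median throughout (log2 difference -0.18, adjusted p = 0.286). The mean of both probe sets had a log2 difference of 0.52 and was still called (adjusted p = 0.0096).

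Hml encodes hemolectin, a clotting protein that is a standard marker of larval plasmatocytes. Signals were 4.86, 5.00 and 5.15 in fkh mutants and 5.09, 5.01 and 4.95 in WT. The groups overlapped, with a log2 difference of -0.01 (standard error 0.10, adjusted p = 0.948), whose sign changed with the scaling of the arrays.

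PPO1 showed the largest difference of the 10 genes. This enzyme precursor of crystal cells starts melanin formation once it is cleaved. It was at 8.44, 9.03 and 8.47 in fkh mutants and at 6.94, 6.28 and 6.82 in WT. The lowest fkh array stood 1.50 log2 units above the highest WT array, and WT replicate 2 was the lowest of all. The log2 difference was 1.97 (standard error 0.22, adjusted p = 0.0019 from limma), and the 95% interval of the ratio of fkh mutants to WT was 2.72 to 5.64. It was called under each of the 15 alternatives for its difference, with values of 1.77 to 2.14.

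Of the other 2 prophenoloxidase genes, PPO2, the other enzyme of crystal cells, was 1.79-fold higher (9.01, 9.27 and 9.41 in fkh mutants and 8.58, 8.25 and 8.36 in WT, adjusted p = 0.0069 from limma). PPO3, the form of lamellocytes, was 1.52-fold lower at a signal below the array median on every array (4.36, 4.37 and 4.28 in fkh mutants and 5.09, 4.83 and 4.90 in WT, adjusted p = 0.0054). Within 6 measured genes of melanization, these were the only calls, 1 in each direction. Without limma's pooling of the spread PPO2 was no longer called, while PPO3 was.

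The 3 probe sets with the most similar course to PPO1 over the 6 arrays, by Euclidean distance of values centred on each gene's mean, belonged to Hand, MFS3 and Vajk1 (distances 0.456, 0.474 and 0.500). Hand, a transcription factor of the heart and blood-forming organ, was at 7.22, 7.95 and 7.30 in fkh mutants and at 5.79, 5.51 and 6.05 in WT. Each of the 3 was higher in fkh mutants, by 3.27-fold, 3.76-fold and 3.75-fold, as the choice by likeness to PPO1 requires.

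**Figure D2:**
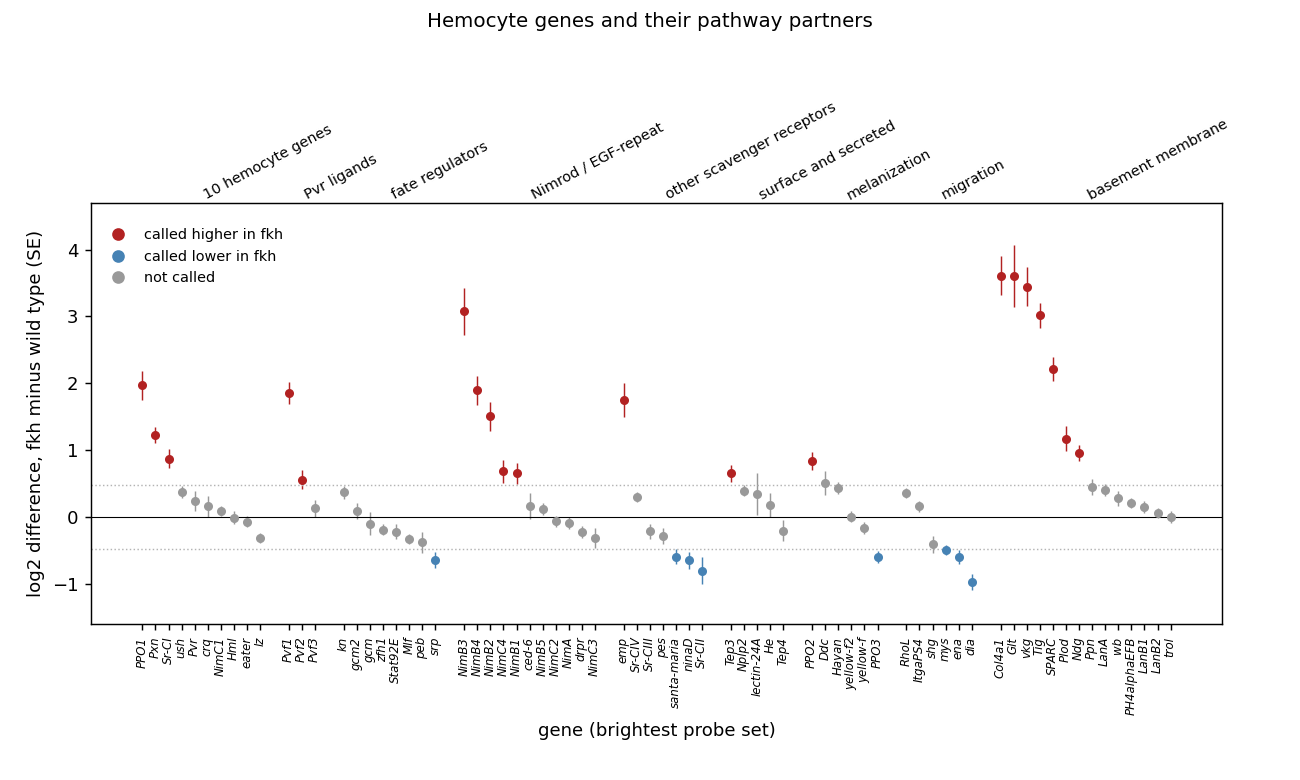
Log2 difference of fkh mutants minus WT with its standard error for the 10 hemocyte genes and for 60 other genes in lists of blood cell function, with 1 point per gene (brightest probe set, 6 arrays). Red and blue points were called higher and lower in fkh mutants, grey points were not called, and dotted lines mark 1.4-fold. The highest points belong to Nimrod and basement membrane genes, and the 8 genes called lower are srp, Sr-CII, ninaD, santa-maria, PPO3, dia, ena and mys.

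Among 14 measured basement membrane genes that hemocytes make, 7 were higher and none lower, with a median log2 difference of 0.70. Collagen IV is the substrate of peroxidasin, and its genes Col4a1 and vkg, neighbours on arm 2L, were higher by 3.61 and 3.45 in log2 units. The matrix genes Glt and Tig were higher by 3.60 and 3.02. These values and that of SPARC (2.22), a collagen-binding matrix protein, stood above the 1.97 of PPO1. WT values of Glt (4.22, 4.44 and 4.16) were below the array median, so its difference depends on the background of the array. Its fkh values were 7.99, 8.84 and 6.79, and its call was lost under 1 alternative. LanB1 and LanB2, which encode laminin chains, had differences of 0.15 and 0.06 and did not pass. The brightest of 8 probe sets of trol, the perlecan gene, had a log2 difference of -0.00, and 2 dimmer ones were called higher (0.78 and 0.95).

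Of 6 measured genes of cell migration, 3 were lower and none higher, with a median log2 difference of -0.45. The formin gene dia was 1.96-fold lower, the actin regulator gene ena 1.51-fold and the integrin gene mys 1.41-fold (adjusted p = 0.0026, 0.011 and 0.0073 from limma). They are transcribed in most tissues of the embryo. A dimmer probe set of mys was 1.38-fold lower and was not called (adjusted p = 0.037 from limma). The call of mys, at the edge of the fold minimum, was lost under 7 alternatives, among them leaving out fkh replicate 2, fkh replicate 3 or WT replicate 1, and that of ena was lost without WT replicate 2 or WT replicate 3. Among 5 measured surface and secreted proteins of blood cells, Tep3 alone was called (1.58-fold higher, at low signal). Its call was lost without WT replicate 1, without WT replicate 3 and without pooling of the spread. Over all 60 other genes of these lists 17 were higher and 8 lower, with a median log2 difference of 0.16. Among all genes 7.80% were called higher and 7.89% lower, shares that also apply beside the count of each list. The lists are not limited to genes of blood cells, as dia, ena and mys show.

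The fkh arrays also differed from each other. In all 7 called basement membrane genes fkh replicate 2 was above fkh replicate 1, which was above fkh replicate 3. The same order was found in 6 of the 7 muscle markers, in NimB2, NimB3 and NimB4, and in 51.8% of all genes called higher. None of PPO1, Pxn and Sr-CI had it. PPO1 was also highest in fkh replicate 2, and missed the order only by a small gap between fkh replicates 1 and 3 (8.44 and 8.47). Between fkh replicates 2 and 3 the signal differed by 0.56 in PPO1, -0.23 in Pxn and -0.10 in Sr-CI (log2 units, replicate 2 minus replicate 3), against a range of 0.47 to 2.06 in basement membrane genes and of 0.18 to 3.04 in muscle markers. Over all genes called higher the median of this difference was 0.53, and it was above 0 in 75.3%. This is a description of 3 arrays, and whether the groups of genes differ in it was not tested.

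**Figure D3:**
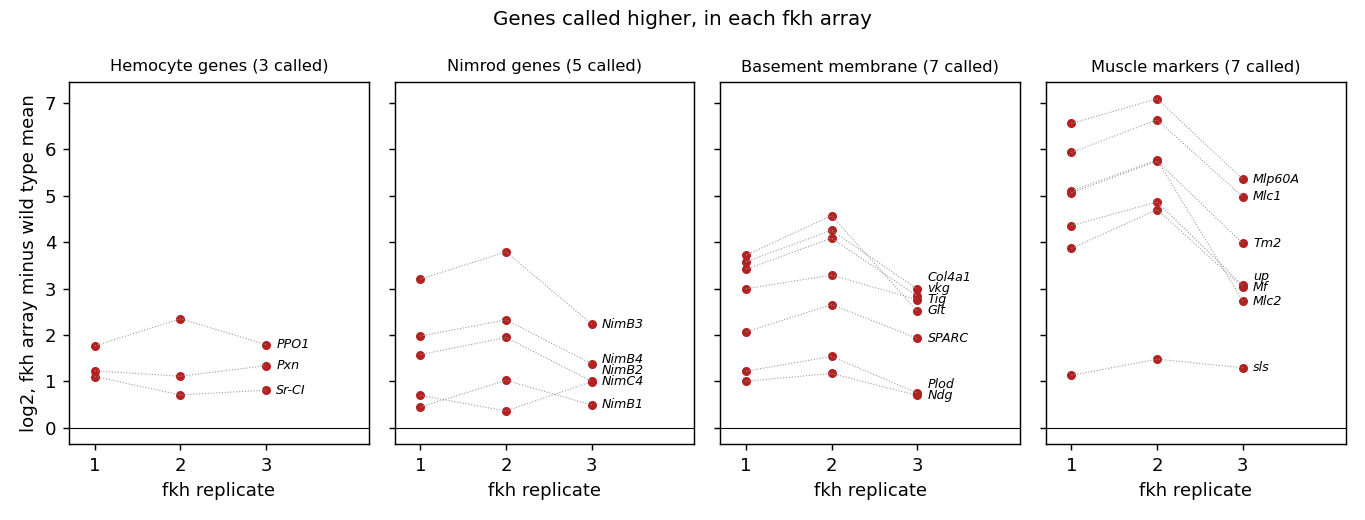
Log2 signal of each fkh array minus the WT mean, for the genes called higher among the hemocyte genes (3), the Nimrod genes (5), the basement membrane genes (7) and the muscle markers (7). Each point is 1 array, dotted lines join the values of a gene, and replicates have no order. Basement membrane genes and muscle markers are highest in fkh replicate 2, while Pxn and Sr-CI are lowest there.

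The spread among replicates also differed from gene to gene in the set. The SD was larger in fkh mutants than in WT in 5 of the 10 genes. It was 0.30 in fkh mutants and 0.05 in WT for Pvr and 0.32 and 0.08 for crq, and both of these genes failed the test. For PPO1 it was similar, 0.33 in fkh mutants and 0.35 in WT. The fkh mutation lies on the third chromosome, as do Hml, Pxn and eater, while the other 7 genes, PPO1 and Sr-CI among them, lie elsewhere. Over the alternative settings the sign of the difference was kept in all of the 10 genes but Hml and crq.

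**Figure D4:**
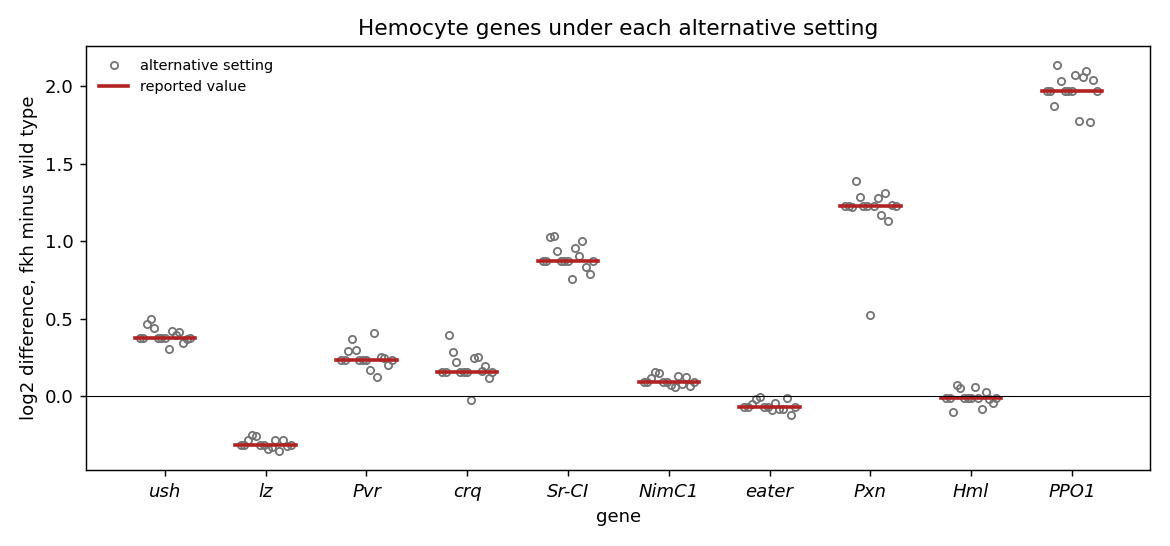
Log2 difference of fkh mutants minus WT for the 10 hemocyte genes, as reported (red line) and under each alternative setting of the analysis (open circles). PPO1, Pxn and Sr-CI stay above 0 throughout, with the lowest value of Pxn, 0.52, where its 2 probe sets are averaged, and Hml and crq cross 0.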

How the data were processed

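The authors hybridized 1 Affymetrix Drosophila Genome 2.0 array per collection and deposited log2 values made with RMA in Partek (per the labels), with no version stated in the sources used here. No detection call was used, and the number of arrays limits precision. Probe sets were named by the platform annotation: 13647 named 1 gene, 402 several and 4720 none. Symbols were checked through gene identifiers against RefSeq (assembly GCF_000001215.4, Release 6). Groups were compared over all 6 arrays with limma 3.58.1 in R 4.3.3 (lmFit, eBayes), without covariates, with Benjamini-Hochberg adjustment over all 18769 probe sets and a fold minimum of 1.4. The methods name p and fold but no test. The fit was tested on simulated data. Tables were made with Python 3.11.15 and pandas 2.3.3. The members and lists were chosen with earlier results of these data known. Named genes were all members, up to 4 called genes per list with the largest difference, up to 2 called against the list's direction, and the 3 probe sets most like the member with the largest called difference. Other genes (such as Mlf, kn, gcm, drpr, NimA, LanB1 and trol) were named after their values were seen. Genes without a probe set of their own name (14 of 74 in the other blood lists) were not analysed here. No sequence is shown. The alternatives are given with their effect below.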

Additional observations from a re-analysis of the deposited data

How the results depend on the processing

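The count of hemocyte genes called higher was 3, and 2 to 4 under all alternatives tried, and that of genes called lower was 0, or 1 (lz) with no fold minimum. Leaving out any 1 array gave 3 higher and 0 lower. Of 147 alternative values for single hemocyte genes, 140 kept their direction and their call by p and fold together. The log2 difference of Hml was 0.0706 after cyclic loess and 0.0515 with scaling to ribosomal proteins, and -0.0851 (without fkh replicate 3) to 0.0593 (without fkh replicate 1) when 1 array was left out. That of crq was -0.0271 (without fkh replicate 1) to 0.2564 (without fkh replicate 3) when 1 array was left out. ush was called after cyclic loess (0.50), and Sr-CI lost its call without pooling of the spread (0.87, adjusted p = 0.070). In the other blood lists the test without pooling gave 8 higher and 3 lower and a fold minimum of 2 gave 11 higher and 0 lower, against 17 and 8, and leaving out 1 array gave 13 to 18 higher and 4 to 9 lower. Of 24 called genes, which were members or were picked from the other blood lists by size of difference, 13 lost their call without pooling and 5 to 7 when 1 WT array was left out. Other called genes in the text, such as SPARC and NimB1, are not in this count.

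Over the whole array 1162 probe sets were higher and 1151 lower. Without pooling these were 406 and 538, with a fold minimum of 2 they were 683 and 264, with no fold minimum 1795 were lower, and after cyclic loess 690 were lower. Leaving out 1 array gave 668 to 1522 higher and 705 to 1355 lower. Rises were 50.2% of calls as deposited, 65.3% with cyclic loess and 60.2% with ribosomal scaling, at median differences of -0.08, 0.0057 and -0.01 across the array. Nothing in the labels pairs arrays of the same number, and the deviations of same-numbered arrays from their group means correlated at 0.072, 0.073 and -0.079. A block for replicate number, which gave 1168 higher and 1069 lower, changed no call among the 10 hemocyte genes (the adjusted p of lz was 0.081) and ended those of NimC4 (adjusted p = 0.063) and Sr-CII (adjusted p = 0.060) among the other named genes. The causes were not tested. No detection call sets a lower limit, so that values near 4 to 5 in log2 units have no known distance from background.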
